A study of Mus musculus with 9 samples.

Results

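Penk encodes proenkephalin, the precursor of the enkephalin opioid peptides, and A830012C17Rik is a noncoding gene that starts next to it on the opposite strand of mouse chromosome 4. Both genes were chosen by symbol, because Penk stood near the top of the genes that were higher under chronic than under acute stimulation. They are 2 of 37022 genes and hold 3 of 118482 deposited transcript rows, which are Penk-201, Penk-202 and A830012C17Rik-201. Because that contrast chose the pair, its values are given as a description with no test.

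The series holds 9 libraries of nascent RNA from cultured mouse CD8+ T cells, which kill infected or tumour cells. For 30 minutes all cells took up 5-ethynyl uridine at 0.2 mM, which marks RNA while it is made, and the captured RNA was read in pairs of 100 bases. The 3 groups of 3 libraries were acute stimulation (Acute), chronic stimulation (Chronic), and chronic stimulation with MEK inhibition (ChronicMEKi), and the series relates them to T cell exhaustion. The way and length of stimulation, the inhibitor, the mouse strain and age, and whether replicates were separate cultures or animals are not given in the labels, so p-values measure only the spread between these libraries.

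Proenkephalin is cut at pairs of basic residues by prohormone convertases and trimmed by carboxypeptidases, which releases several copies of Met-enkephalin and a Leu-enkephalin. These pentapeptides bind the delta and mu opioid receptors and are removed by peptidases at the cell surface. The gene is best known from brain and adrenal medulla, is also transcribed in activated T cells, and is a textbook target of CREB and AP-1 factors at its promoter. No function of A830012C17Rik is described here.

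In GENCODE M21 (mouse build GRCm38), Penk-201 occupied chr4:4133531-4138477 on the minus strand with 2 exons, and Penk-202 occupied chr4:4134112-4138819 with 3 exons. A830012C17Rik-201 occupied chr4:4138321-4188703 on the plus strand, also with 2 exons, the first of which lay over the first exon of Penk-201. The 5′ ends therefore overlapped, by 157 bases with Penk-201 and 499 bases with Penk-202, and the transcripts ran away from each other beyond that overlap. No gene other than Penk overlapped A830012C17Rik. The RefSeq model of the noncoding gene was different: it spanned chr4:4148030-4181846 and began 9211 bases beyond the end of Penk, with no overlap. The relation of the pair thus depended on the annotation, and the deposited rows follow the Ensembl transcripts.

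A stretch of each transcript is shown to identify what the gene-body signal covers. The coding sequence of Penk-201 held 268 codons with 6 copies of the Met-enkephalin codons and 1 of the Leu-enkephalin codons, and all 7 were coded in exon 2, inside the gene body. The end of that coding sequence, up to the stop codon (chr4:4133839-4134099, minus strand, GRCm38), holds 3 Met-enkephalin copies and the Leu-enkephalin copy, printed in capitals. The first 120 bases of exon 2 of A830012C17Rik-201 (chr4:4187429-4187548, plus strand) lie at the far end of its long intron, away from every Penk exon, and carry no capitals.
Penk-201 exon 2, enkephalin codons: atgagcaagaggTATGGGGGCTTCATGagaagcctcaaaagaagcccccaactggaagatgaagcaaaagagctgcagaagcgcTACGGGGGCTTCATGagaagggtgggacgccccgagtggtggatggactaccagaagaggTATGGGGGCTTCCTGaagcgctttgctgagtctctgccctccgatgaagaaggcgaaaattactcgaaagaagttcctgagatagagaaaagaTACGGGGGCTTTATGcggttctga
A830012C17Rik-201 exon 2, first bases: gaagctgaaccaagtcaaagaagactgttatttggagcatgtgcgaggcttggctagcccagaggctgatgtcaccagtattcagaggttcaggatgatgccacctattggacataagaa

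The deposited values are signal, read here as coverage summed over a region, per transcript, in a gene-body table and a pause-region table, the latter covering the stretch around the transcription start. Neither the region limits nor the use of strand is given in the labels, so both were estimated from the tables. Over all genes, 29 of 30 pairs of opposite-strand transcripts whose starts faced each other across 100 to 109 bases had identical pause-region signal in all 9 libraries. None of the 63 pairs 150 to 159 bases apart did. Identical values on opposite strands mean that signal was summed without regard to strand, over a window centred about 50.5 bases inside each start. The estimated window was 540 bases wide, and the gene body began about 259 bases inside the start.

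**Figure D1:**
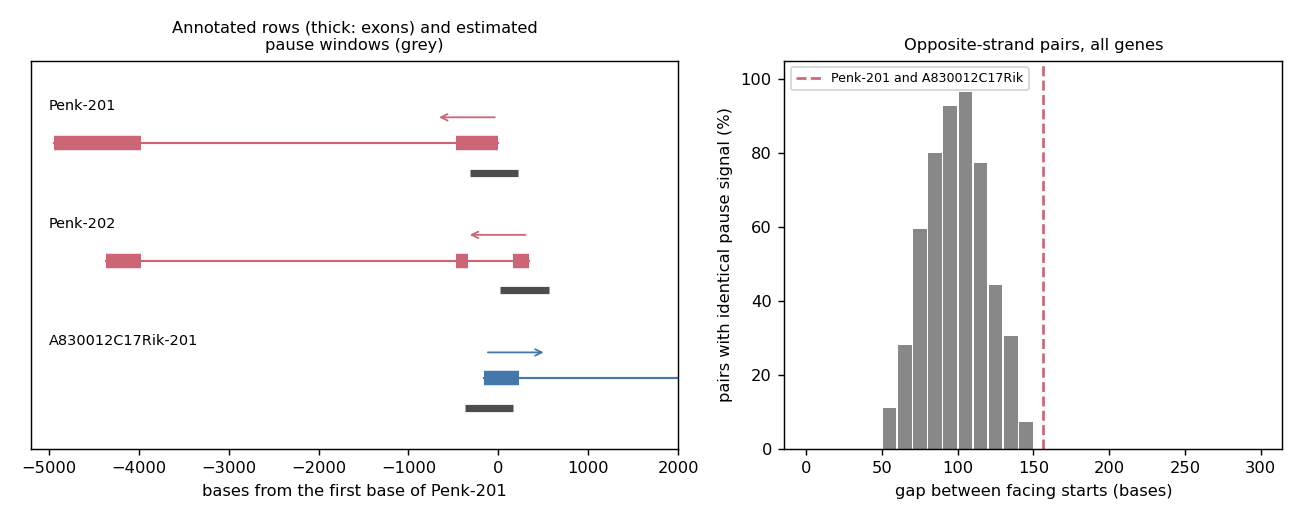
Left, the annotated rows of both genes by distance in bases from the first base of Penk-201, with exons as thick lines, arrows for the direction of transcription and the estimated pause windows in grey; A830012C17Rik-201 runs on beyond the right edge. Right, the percentage of opposite-strand pairs over all genes whose pause-region signal was identical in all 9 libraries, by the gap between their facing starts in bases; it peaked at 96.7% for gaps of 100 to 109 bases, and the dashed line marks the gap of 156 bases of the Penk-201 and A830012C17Rik pair.

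These estimates set what each value of the pair can mean. The starts of Penk-201 and A830012C17Rik-201 face each other 156 bases apart, so their pause windows shared about 487 of 542 bases. The pause window of Penk-202 lay over the first part of the gene body of A830012C17Rik, for about 460 bases. The gene body of Penk-201, in contrast, shared 0 bases with the annotated span of A830012C17Rik, and is the value of Penk on which the results rest.

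Gene-body signal of Penk was high in Chronic libraries and near the bottom of the scale elsewhere. Penk-201 had a deposited signal of 20.1, 0 and 2.55 in Acute replicates 1 to 3. In Chronic replicates it had 504, 475 and 627, and in ChronicMEKi replicates 26.1, 38.2 and 25.3. The 3 groups did not overlap, though the highest Acute value of 20.1 lay close to the lowest ChronicMEKi value of 25.3. Chronic stood apart from both others, and Penk was chosen for its height there. How many of all genes had groups without overlap was not counted, here or in the comparisons below. Most of the Acute signal was in replicate 1. In bulk RNA of this kind, fewer cells transcribing a gene and less transcription per cell cannot be told apart.

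Penk-202, which begins farther upstream and shares most of the Penk-201 body, gave the same order. Its gene-body signal was 17.03, 0 and 1.70 in Acute, 366, 356 and 483 in Chronic, and 20.4, 34.1 and 37.0 in ChronicMEKi libraries. The 2 rows cover largely the same bases and are not independent of each other.

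The noncoding gene had less signal than Penk-201 in Chronic libraries and more in Acute ones. A830012C17Rik-201 had a gene-body signal of 42.6, 33.6 and 62.0 in Acute, 75.3, 79.4 and 112 in Chronic, and 19.6, 49.9 and 22.6 in ChronicMEKi libraries. Every Chronic library was above every other library, while Acute and ChronicMEKi libraries overlapped.

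**Figure D2:**
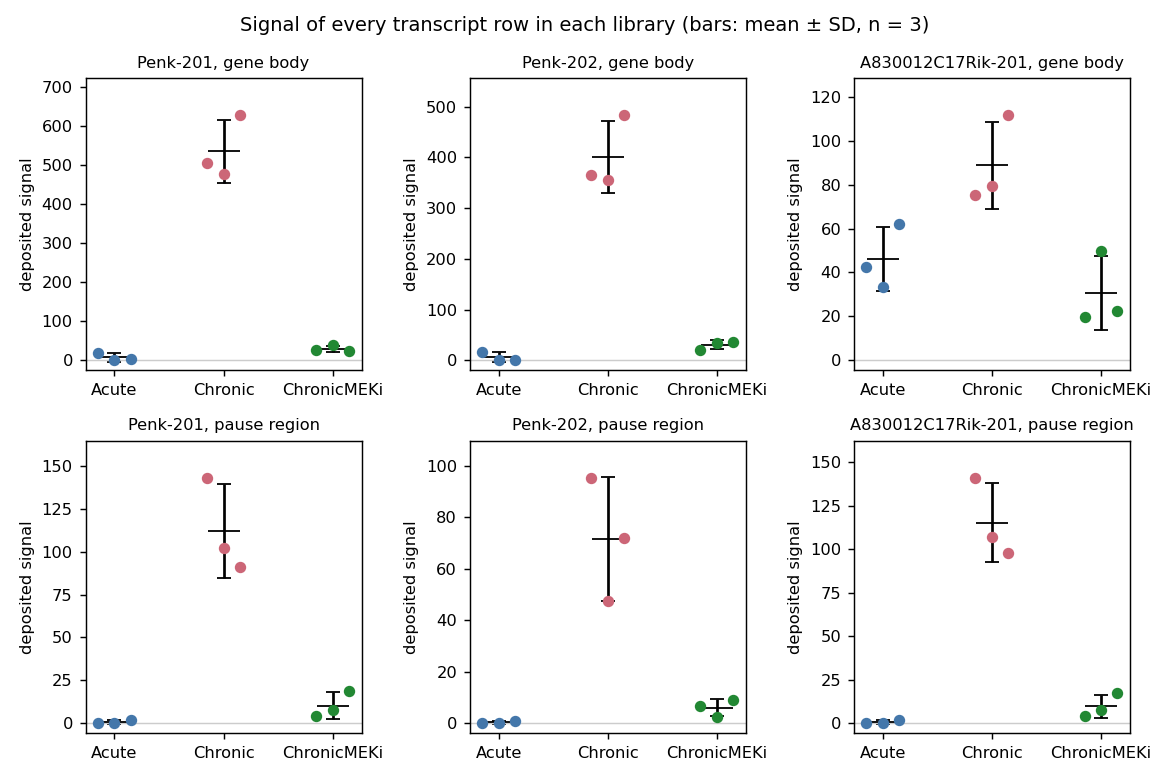
Deposited signal of each of the 3 transcript rows in the gene body (top) and pause region (bottom); points are libraries, and black bars are the mean ± SD of 3 libraries, with a separate linear axis for each panel. Chronic libraries are highest in every panel, with Penk-201 gene-body signal between 475 and 627 and A830012C17Rik between 75.3 and 112.

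Genes were then compared after scaling each library by a trimmed mean of log ratios and adding 5 on the log2 scale, over the 15942 genes that reached a signal of 50 in 3 or more libraries. Penk reached 50 only in the 3 Chronic libraries, and A830012C17Rik in those and in Acute replicate 3, so both genes were tested because of their Chronic values. The scaled gene-body signal of Penk was 6.23 ± 9.08 (SD, n = 3) in Acute and 619 ± 126 in Chronic libraries, a ratio of means of 99.4 and a log2 difference of 6.08. The ratio rests on a small Acute mean: without Acute replicate 1, 2 or 3 it was 607, 66.3 and 74.4, and without replicate 1 the log2 difference was 6.69. This was the 2nd highest log2 difference of the 15942 genes, in a comparison in which 18% of genes were called higher, and it is the value for which Penk was chosen. A830012C17Rik had 37.9 ± 10.6 in Acute and 103 ± 29.3 in Chronic libraries, a log2 difference of 1.33 and rank 772.

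With MEK inhibition, Penk gene-body signal fell to 31.3 ± 6.95 (SD, n = 3), 19.8 times below the Chronic mean. Its log2 fold change was -4.10 (SE 0.54, limma adjusted p 2.22e-05), the 12th lowest of all genes tested. A830012C17Rik fell as well, to 32.1 ± 16.7, with a change of -1.60 on the log2 scale (SE 0.51, limma adjusted p 0.0355). Both genes were thus called lower in this comparison, in which 7.65% of all genes were called lower. The Chronic libraries are the same ones that put Penk on view, so the falls are not independent of its rise.

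The call of A830012C17Rik did not hold without any 1 of the 3 Chronic libraries, ChronicMEKi replicate 1 or ChronicMEKi replicate 3. Its limma adjusted p was then 0.0551, 0.0819, 0.143, 0.102 and 0.102, in that order, and its log2 fold change lay between -1.76 and -1.39. The call of Penk held without each library in turn, with log2 fold changes from -4.25 to -3.95.

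ChronicMEKi libraries had more Penk signal than Acute ones, but all 6 libraries lay below the filter of 50. Penk passed that filter only through its Chronic libraries, which belong to neither group, so its p-values here are no independent support. The scaled means of 31.3 and 6.23 differed 5.02-fold, or by 1.97 on the log2 scale (SE 0.54, limma adjusted p 0.0113), in a comparison in which 14.4% of genes were called higher. With the 6 libraries of these groups alone, the limma adjusted p was 0.128, and with 50 in place of 5 added the log2 fold change was 0.54 (adjusted p 0.123). A830012C17Rik gave -0.27 (limma adjusted p 0.746) in this comparison, and its groups overlapped. The ratio was 30.7, 3.35 and 3.76 without Acute replicate 1, 2 or 3, and without replicate 1 the log2 fold change was 2.54. The Acute libraries are shared with the contrast that chose Penk.

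Levels of the 2 genes were compared per kilobase of annotated gene length. Penk had a mean scaled gene-body signal per kilobase of 1.18 in Acute, 117 in Chronic and 5.91 in ChronicMEKi libraries. Of the genes tested, 11.2%, 82.1% and 21.6% lay below these levels. A830012C17Rik had 0.752, 2.05 and 0.636 per kilobase, above 8.31%, 14.3% and 7.91% of the genes tested. In Chronic libraries Penk thus stood above most genes tested, and the noncoding gene lay in the lowest part of that order in all groups.

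Per library, the balance between the 2 genes was followed as the log2 ratio of their scaled gene-body signals, each with 5 added. It was -0.89, -2.76 and -2.96 in Acute, 2.67, 2.52 and 2.45 in Chronic, and 0.34, -0.34 and 0.14 in ChronicMEKi libraries. In Acute replicates 2 and 3 the scaled Penk signal was only 0 and 2.04. The ratios of -2.76 and -2.96 there depend mainly on the added 5 and do not measure the balance. The mean ratio changed by -2.50 from Chronic to ChronicMEKi libraries, with no overlap (two-sided exact permutation p 0.1). This p is the smallest that 3 against 3 libraries allow, so the test cannot decide whether the balance changed. Penk was also chosen for its height in the Chronic libraries, so a high ratio there is no independent result. As a description only, Penk lost the larger share of its signal between Chronic and ChronicMEKi libraries. Over all 9 libraries their log2 signals had a Pearson correlation of 0.79, given as a description because the points share groups, libraries and, near the starts, bases.

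The gene-body value of A830012C17Rik includes bases near the start of Penk. The pause region of Penk-202, which lies over the beginning of the A830012C17Rik gene body, had a signal of 0, 0 and 0.849 in Acute, 95.4, 47.4 and 71.9 in Chronic, and 6.52, 2.49 and 9.02 in ChronicMEKi libraries. In Chronic replicate 1 this was more than the 75.3 of the whole A830012C17Rik gene body, which covers only part of that window. Subtracting it gives a lower bound for the signal of the noncoding gene outside the window, a step chosen after the values were seen.

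That lower bound was 42.6, 33.6 and 61.2 in Acute, 0, 32.0 and 39.6 in Chronic, and 13.0, 47.4 and 13.5 in ChronicMEKi libraries. As deposited, the Chronic mean exceeded the Acute mean by 42.7, and after the subtraction, without setting negative values to 0, the difference was -28.6. Beyond the window, signal of A830012C17Rik in Chronic libraries could thus lie anywhere from below the Acute level to above it. The same limit applies to its fall with MEK inhibition, and how much of either came from transcription of Penk in the other direction was not tested.

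**Figure D3:**
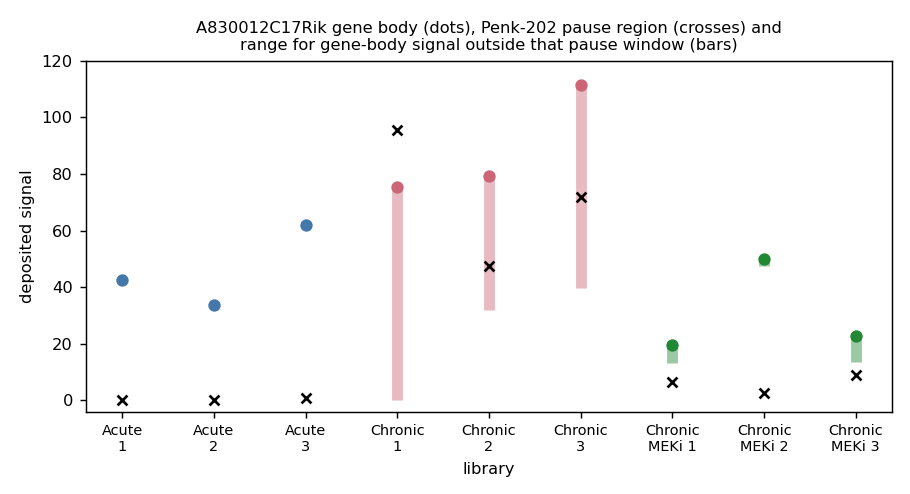
Deposited gene-body signal of A830012C17Rik (dots) and pause-region signal of Penk-202 (crosses) in each of the 9 libraries; bars run from the dot down to the lower bound for A830012C17Rik signal outside the Penk-202 pause window. The bars are long only in Chronic libraries, where they reach down to 0, 32.0 and 39.6.

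Around the facing starts themselves, both genes showed one and the same signal. The pause region of Penk-201 had 0, 0 and 1.70 in Acute, 143, 102 and 91.3 in Chronic, and 4.07, 7.48 and 18.9 in ChronicMEKi libraries. That of A830012C17Rik had 0, 0 and 1.70, then 141, 107 and 97.7, and then 4.07, 7.48 and 17.1. The values were identical in 5 of 9 libraries, and in the others they differed by 2 to 7 of the steps in which a library's signal is counted. Signal in these windows cannot be assigned to either gene, and a test of one is nearly a repeat of the test of the other.

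Pause-region signal was close to 0 in Acute libraries, high in all Chronic libraries and low in all ChronicMEKi libraries, with no overlap between Chronic and either other group. Both rows reached 50 only in Chronic libraries. With MEK inhibition against Chronic, Penk changed by -3.18 on the log2 scale (SE 0.89, limma adjusted p 0.0459) and A830012C17Rik by -3.27 (SE 0.89, limma adjusted p 0.0378). Both were called lower, where 1.43% of 7678 genes were. Neither call held without any 1 of the 6 Chronic and ChronicMEKi libraries, with limma adjusted p up to 0.192 and 0.184. Against Acute, the ChronicMEKi differences of 1.28 and 1.24 did not pass the test (limma adjusted p 0.486 and 0.4995), where 3.44% of genes were called higher.

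The balance of pause region to gene body was compared for genes that passed in both tables. For Penk the log2 difference between regions was -2.11, 0 and -0.01 in Acute, -1.89, -2.22 and -2.88 in Chronic, and -1.87, -1.90 and -0.44 in ChronicMEKi libraries. Each scaled signal had 5 added before its log2 was taken. In Acute replicates 1 to 3 the scaled pause-region signal of Penk was 0, 0 and 1.98. Its gene-body signal there was 16.6, 0 and 2.04. The Acute differences thus depend on the added 5 and do not measure a balance. Chronic and ChronicMEKi libraries overlapped, and the change of 0.92 with MEK inhibition against Chronic did not pass (SE 0.60, limma adjusted p 0.917). For A830012C17Rik the change was -1.66 (SE 0.45, limma adjusted p 0.726), with pause windows that largely coincide with those of Penk. No gene of 7413 was called in this comparison (0%), and 394 had an unadjusted limma p under 0.05.

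Genes farther from Penk were read next. Of 19 other annotated genes within 1000000 bases, 7 passed the filter, and none was called between Chronic and Acute libraries, where 33.9% of all genes were called in either direction. Their log2 fold changes there lay between -0.23 for Impad1 and 0.73 for Plag1, a zinc finger transcription factor gene whose adjusted p was 0.274 by limma. Tmem68, Tgs1, Lyn, Rps20 and Chchd7 lay within that range. Scaling to library totals moved the median gene by -0.49, and 6846 of 15942 genes were then called lower. Among them were Tmem68 (-0.57), Tgs1 (-0.55), Rps20 (-0.41) and Impad1 (-0.71), with Rps20 turning from a value of 0.08. With MEK inhibition against Chronic, 1 of the 7 was called, where 17.6% of all genes were: Lyn, which encodes a Src family kinase, was 0.88 higher (SE 0.22, limma adjusted p 0.00886), opposite in direction to Penk.

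**Figure D4:**
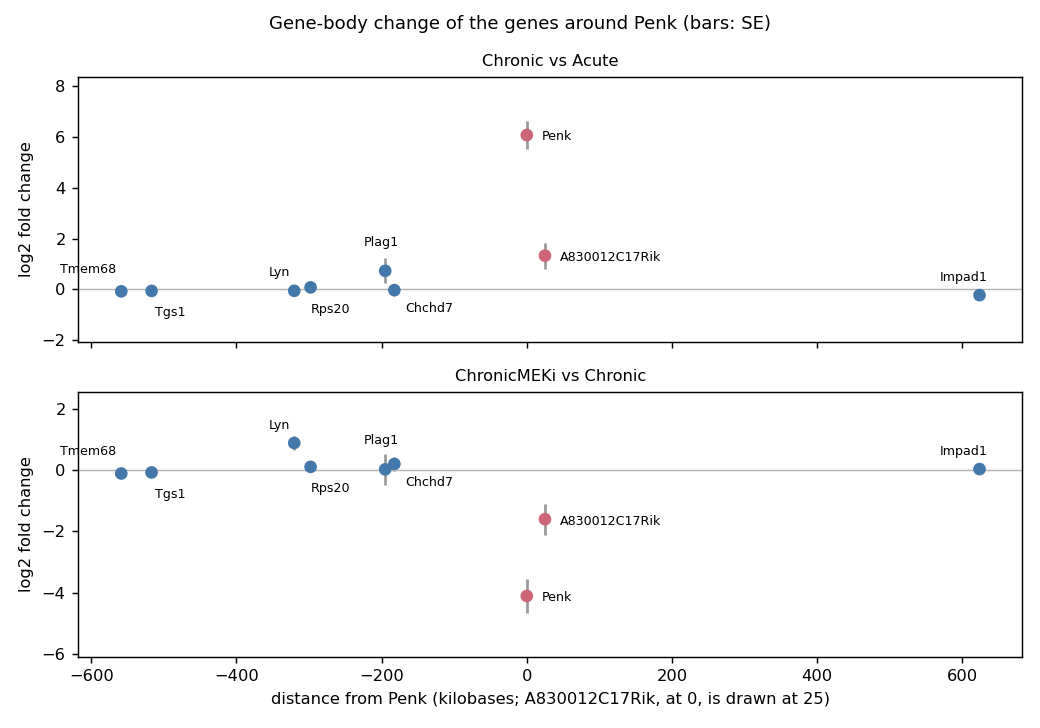
Gene-body log2 fold change, with its SE as a bar, against distance from Penk in kilobases for Penk, A830012C17Rik and the 7 other genes within 1000000 bases that passed the filter. Penk and A830012C17Rik (red) stand away from 0 in both panels, at 6.08 and 1.33 (top) and at -4.10 and -1.60 (bottom), while Lyn is the one neighbour called, in the lower panel.

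To place the pair among others of its kind, 735 pairs of a coding and a noncoding gene were taken whose starts lay on opposite strands and overlapped or were within 1000 bases. With MEK inhibition against Chronic, both genes of a pair were called in the same direction in 49 pairs, or 6.67%, and the coding gene alone in 130 pairs, or 17.7%. Of all genes tested, 17.6% were called in either direction in this comparison. Penk and A830012C17Rik belong to the former pairs only through the A830012C17Rik call. That call was lost without some single libraries and under library totals (limma adjusted p 0.0660). Many of these pairs also share bases without strand, so the shares describe the tables rather than transcription from either strand.

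Genes whose pattern was most like that of Penk were ranked by the Pearson correlation of log2 signal over the 9 libraries, among 11108 eligible genes. Among the 10 highest were Cdkl4 (0.993), Havcr2 (0.991), Plin2, Ptpn5, Pak6, Prf1, Filip1, Sv2c and Gpr141 (0.980). Havcr2, which encodes the inhibitory receptor TIM-3, had a scaled signal of 190 ± 79.3 in Acute, 4854 ± 197 in Chronic and 472 ± 31.1 in ChronicMEKi libraries (SD, n = 3). Prf1, which encodes perforin, had 91.3 ± 17.7, 2208 ± 388 and 330 ± 39.7. Plin2, a lipid droplet coat protein gene on the same chromosome as Penk, had 184 ± 22.9, 1012 ± 183 and 301 ± 20.5. All 3 were highest in Chronic and had a ChronicMEKi mean above the Acute mean. This order largely follows from their choice by correlation with Penk over the same libraries and is no separate result.

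For A830012C17Rik the 5 most alike genes included Lhfp (0.974), Rnft2 (0.962), Zfp770 (0.952) and Olr1 (0.942). Rnft2 had 47.5 ± 27.5 in Acute, 239 ± 32.9 in Chronic and 55.1 ± 47.1 in ChronicMEKi libraries. Only the likeness of values is described by these correlations, since the libraries fall into 3 groups.

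Other genes of opioid peptide biology were read from the same fit. Penk was the only one of 4 opioid precursor genes that passed the filter. Pomc had at most 25.1 ± 10.2 (SD, n = 3) scaled signal, in Chronic libraries, and Pdyn and Pnoc were at similar or lower levels. Of 6 receptor genes, 2 passed. Ogfr, which encodes an intracellular receptor for Met-enkephalin, was 0.56 higher with MEK inhibition than in Chronic libraries (SE 0.13, limma adjusted p 0.00551). The Oprm1 locus, named for the mu receptor, was lower in Chronic than Acute libraries by a log2 fold change of -2.63, but it overlaps Ipcef1 on the other strand and its signal cannot be assigned to the receptor gene. Oprd1, the delta receptor gene, had 31.5 ± 15.5, 34.9 ± 14.6 and 30.7 ± 12.9 and did not pass the filter.

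Of 14 genes for peptide processing and release, 10 were tested. Between Chronic and Acute libraries 1 was higher and 1 lower, where 18% and 15.9% of all genes were, with a median log2 fold change of -0.56 beside -0.02 for all genes. With MEK inhibition against Chronic 3 were higher and none lower, where 9.93% and 7.65% of all genes were, with a median of 0.42 beside 0.04. Furin, a ubiquitous proprotein convertase gene, was 0.56 higher in Chronic than Acute libraries (limma adjusted p 0.00036) and a further 0.62 higher with MEK inhibition. Under library totals the list had none higher and 4 lower between Chronic and Acute libraries, where 1096 and 6846 of 15942 genes were. The Furin call was then lost (0.07, limma adjusted p 0.677), and Pcsk4 (-1.09), Pcsk7 (-0.69) and Pcsk2 (-1.14) were called lower beside Pam. Pam, the peptide amidating enzyme gene, gave -0.51 between Chronic and Acute libraries and was 0.62 higher with MEK inhibition. Pcsk7, a convertase gene that overlaps Rnf214 on the other strand, was the third called, at 0.44. Pcsk1, the neuroendocrine convertase gene, did not pass the filter, and Cpe, the carboxypeptidase E gene, passed and was called in no comparison.

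Of 10 genes for peptidases that can break down enkephalins, 6 were tested, and Mme, the neprilysin gene, and Anpep did not pass the filter. Between Chronic and Acute libraries Ece1 was higher by 0.51 and Lnpep lower (-0.36), where 18% and 15.9% of all genes were called higher and lower. The call of Ece1 was lost under library totals (0.02, limma adjusted p 0.926). Of the list none was then higher and 3 were lower, where 1096 and 6846 of 15942 genes were. In ChronicMEKi against Chronic libraries 1 of the 6 was called higher and none lower, where 9.93% and 7.65% of all genes were. This was Npepps, a cytosolic aminopeptidase gene, at 0.32 (limma adjusted p 0.0432). Its call was lost with totals that left out the ribosomal RNA-like locus of chromosome 17 (0.31, limma adjusted p 0.0844).

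Factors of the CREB/ATF and AP-1 families include known regulators of the Penk promoter. Of 17 genes 15 were tested, and between Chronic and Acute libraries 9 were higher and 3 lower (18% and 15.9% of all genes), with a median log2 fold change of 0.79. With MEK inhibition against Chronic, 6 were lower and none higher (7.65% and 9.93% of all genes), with a median of -0.36. The 6 were Fosl1 (-1.95), Batf (-1.47), Atf3 (-0.86), Junb (-0.72), Crem (-0.65) and Fosl2 (-0.49), and each of them had been higher in Chronic than Acute libraries, by 2.08, 2.44, 2.19, 1.62, 1.17 and 0.97. With signal summed without strand, those of Fosl1, Junb and Crem are uncertain, since these genes overlap Ccdc85b, Prdx2 and Gm6225 on the other strand, with mean signals of 783, 339 and 559. Creb1, which encodes the founding CREB factor, was lower in Chronic than Acute libraries (-0.26) and did not pass with MEK inhibition (0.14). Fos, the founding AP-1 member, was also lower in Chronic than Acute libraries (-3.28). The lists were chosen with results of these data known. Library totals gave 7 higher and 5 lower between Chronic and Acute libraries, where 1096 and 6846 of 15942 genes were. Atf2 and Atf4 (0.09 and 0.30) were then no longer called, and Jun (-0.77) and Atf7 (-0.74) were called lower.

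EGR and NFAT factors, which are induced or activated through the T cell receptor, were mixed. Of 6 genes 5 were tested, and between Chronic and Acute libraries only Egr2 was higher, by 3.52, and 4 were lower, where 18% and 15.9% of all genes were. Between ChronicMEKi and Chronic libraries, Egr2 (-3.42) and Egr1 (-2.90) were lower, and Nfatc1 and Nfatc2 were higher by 0.79 and 0.46, where 7.65% and 9.93% of all genes were called lower and higher. The scaled signal of Egr2 was 176 ± 22.7 in Acute, 2075 ± 326 in Chronic and 192 ± 45.8 in ChronicMEKi libraries (SD, n = 3).

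**Figure D5:**
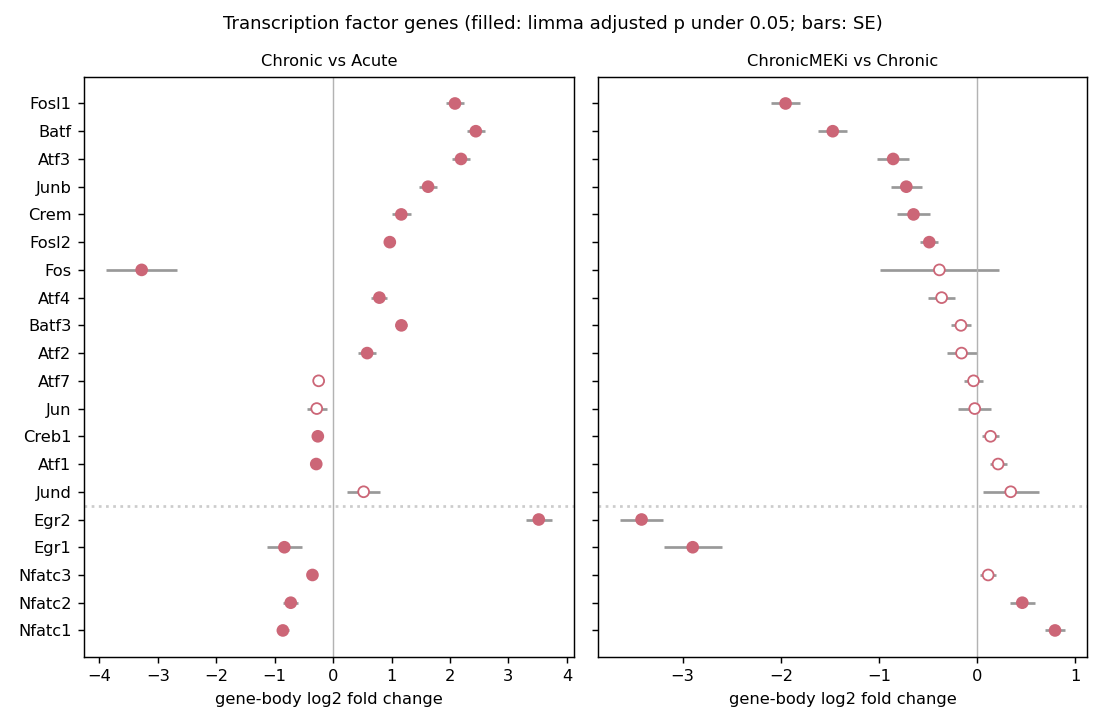
Gene-body log2 fold change, with its SE as a bar, for CREB/ATF and AP-1 genes (above the dotted line) and EGR and NFAT genes (below it) between Chronic and Acute (left) and ChronicMEKi and Chronic libraries (right); filled points have a limma adjusted p under 0.05. Fosl1, Batf, Atf3, Junb, Crem, Fosl2 and Egr2 are right of 0 on the left and left of 0 on the right.

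Markers of the cells were read beside these results. All 6 CD8+ T cell marker genes passed the filter, with summed scaled signal of 15603 to 17220 in Acute, 10201 to 10829 in Chronic and 13353 to 15038 in ChronicMEKi libraries. Cd8a alone had 3653 to 4340, 832 to 1171 and 2580 to 3064. The order of that sum was opposite to that of Penk, and its part in the result was not tested. All 5 CD4 or regulatory T cell genes passed: Cd4 ranged from 101 to 496 over all libraries and was lower with MEK inhibition than in Chronic libraries (-0.91), as was Il2ra (-0.29), while Ikzf2 (1.32) and Zbtb7b (0.82) were higher. The calls of Cd4 and Il2ra were lost under library totals (limma adjusted p 0.0989 and 0.451) and on the deposited scale (0.104 and 0.498). Of the CD4 or regulatory T cell list 3 were higher and 1 lower between Chronic and Acute libraries, where 18% and 15.9% of all genes were. Under library totals none of the list was higher and 1 was lower, where 1096 and 6846 of 15942 genes were. Most of the summed signal of the list was Il2ra, an activation gene that CD8+ T cells also transcribe. Of the markers of cells known for Penk outside T cells, the 4 neuronal genes summed to 213 to 648, 255 to 459 and 218 to 747 in the same order of groups, which overlapped, and no mast cell gene passed the filter. Of the neuronal genes, Tubb3 had its highest mean in Chronic libraries (27.0, 77.4 and 51.4), while Syt1, Rbfox3 and Snap25 had their lowest there. Tubb3 was not called between Chronic and Acute libraries (1.71, limma adjusted p 0.0506). It overlaps Gm20388, with a mean signal of 145221, so its signal cannot be assigned. B cell markers passed for 1 of 4 genes and were highest in Acute libraries, at 351 to 437, against 90.2 to 166 in Chronic ones, and myeloid markers passed for 2 of 5 genes, with neither called. The NK cell markers passed for 1 of 3 genes, Klre1, which fell with MEK inhibition. It had 142 to 157 in Chronic and 26.0 to 50.9 in ChronicMEKi libraries (-1.81, limma adjusted p 0.0098), and 43.9 to 177 in Acute ones. Klre1 was not called between Chronic and Acute libraries (0.66, limma adjusted p 0.293). Unlike Penk, its ChronicMEKi mean of 40.3 lay below its Acute mean of 107. Klrb1c, which did not pass the filter, had means of 9.87 in Acute, 24.1 in Chronic and 40.6 in ChronicMEKi libraries. The summed NK signal was 51.8 to 191, 173 to 177 and 79.3 to 83.2, Ncr1 was at 0 in all ChronicMEKi libraries, and the part of these markers in the result was not tested.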

How the data were processed

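Per the submitters' processing notes, tools included FastQC 0.12.0, Trim Galore 0.6.10, STAR 2.7.0a, SAMtools 1.19.2, deepTools 0.1.9 and R 4.1.2, with build mm10. The authors deposited signal per transcript in 2 tables whose low values are whole multiples of a step per library (0.764 to 1.06, tolerance 0.02 steps), which is not a read, so the depth in reads is unknown. The steps by which region limits were set are not given in the sources used here. Gene-body signal, over 1 row per gene, summed to between 48601757 and 52216192 per library. Rows were matched to GENCODE M21 by transcript identifier (117346 with version, 383 without, 753 unmatched and left out). Each gene was read from the transcript row that was strongest on average in the gene body. Libraries were scaled to each other by a trimmed mean of log ratios without weights (30% of ratios and 5% of levels trimmed), and log2(signal + 5) was fitted with limma 3.58.1 (R 4.3.3; trend, robust moderation, 1 mean per group, all 9 libraries). P-values were adjusted by Benjamini and Hochberg over all genes with a threshold of 0.05, and fold changes of weak genes are understated. The fit was tested on simulated data. Python 3.11.15 and pandas 2.3.3 served to join the tables. Named genes are the pair, tested genes of the lists, tested neighbours, and the 10 and 5 genes of most alike pattern (mean of at least 100 in the highest group, no clone names), of which some are not reported here. The pair and the lists were chosen with earlier results of these data known. Promoter sequence of the pair was not used here.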

Additional observations from a re-analysis of the deposited data

How the results depend on the processing

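Across 22 alternatives Penk stayed called lower in the gene body with MEK inhibition against Chronic (log2 fold change -4.29 to -3.03, limma adjusted p up to 0.00354). All of them reuse Chronic libraries that put Penk on view, so they are no independent support for that fall. The limits lie in weak signal: the pause-region calls and the A830012C17Rik gene-body call did not hold throughout, and the cause was not tested. The A830012C17Rik gene-body fall was -1.49 under library totals (limma adjusted p 0.0660), -1.47 on the deposited scale (0.0624) and -1.64 with transcript rows summed (0.0709). Leaving out 1 library gave -1.95 to -1.39. With the replicate block it was -1.60 (limma adjusted p 0.0555). Replicate numbers did not pair the libraries (correlations of deviations -0.53 to 0.10, none of 9 over 0.1), and the block called 5497, 2956 and 4263 genes against 5403, 2802 and 4118, in the order Chronic against Acute, ChronicMEKi against Chronic and ChronicMEKi against Acute. The pause-region fall of Penk was -2.95 under library totals, -3.05 on the deposited scale, -3.19 without the ribosomal RNA-like locus, -3.82 with 0.5 added (limma adjusted p 0.440) and -3.62 to -2.82 without 1 library. That of A830012C17Rik was -3.03, -3.13, -3.92 with 0.5 added (0.422) and -3.67 to -2.93 without 1 library. Penk in ChronicMEKi against Acute lost its call with 50 added (0.54) and with only those 2 groups (2.02).

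For Chronic against Acute, Penk gene body gave 7.78 with 0.5 added and 3.57 with 50 added, and A830012C17Rik gave 0.88 under library totals, 0.89 on the deposited scale and 0.79 with 50 added. In the pause region Penk gave 4.16 under library totals, 7.11 and 1.73 with 0.5 and 50 added, and 5.10 with rows summed, and A830012C17Rik gave 4.21, 7.16 and 1.76. The A830012C17Rik difference of 42.7 in deposited signal became -28.6 after subtracting the Penk-202 pause region, an alternative chosen after seeing the data, as was the Penk-202 row. Without a filter 1577 genes were called with MEK inhibition against Chronic and 2440 against Acute. The split was 2875 higher and 2528 lower for Chronic against Acute, 1583 and 1219 for ChronicMEKi against Chronic, and 2291 and 1827 for ChronicMEKi against Acute. Under library totals it was 1096 higher and 6846 lower for Chronic against Acute, 1769 and 741 for ChronicMEKi against Chronic, and 955 and 4965 for ChronicMEKi against Acute. The deposited scale gave 1134 and 6713, 1979 and 721, and 1023 and 4542. Without the ribosomal RNA-like locus, 2096 genes were higher and 3759 lower for Chronic against Acute, and 1572 and 3151 for ChronicMEKi against Acute. The median gene moved by up to -0.49 (Chronic against Acute). A minimum of 200 left no value for A830012C17Rik or the pause regions, and alternatives that left out libraries kept the genes that passed over all 9.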
